A study of Mus musculus with 30 samples.

Results

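The genes described are those of the pyruvate dehydrogenase complex, its kinases and its phosphatases in mouse heart. They were taken by symbol from the deposited expression table and are Pdha1, Pdhb, Dlat and Pdhx for the complex, Pdk1, Pdk2, Pdk3 and Pdk4 for the kinases and Pdp1 and Pdp2 for the phosphatases. They make 10 of the 13575 genes in the table, and all 10 had a mean high enough to be tested. The study asked what heart muscle uses REV-ERB alpha and beta for, a pair of clock-controlled nuclear receptors that repress transcription. RNA was sequenced as 3 heart libraries labelled CM-RevDKO and 3 labelled as floxed controls, each called a heart below. CM-RevDKO stands for deletion of both floxed receptor genes, Nr1d1 and Nr1d2, by a Cre transgene that the promoter of alpha myosin heavy chain drives in cardiomyocytes, so the other cells of the heart keep the receptors. The controls carry the same floxed alleles. If they do so without the transgene, what Cre does on its own and what receptor loss does cannot be told apart. All mice were 2 months old and all hearts were taken at ZT10, 10 hours after lights on, with the atria trimmed away before total RNA was prepared. The labels give neither the sex of these mice nor whether the replicates are separate animals, so p-values speak of the spread between the samples and no more.

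The pyruvate dehydrogenase complex sits in the mitochondrial matrix and turns pyruvate from glycolysis or lactate into acetyl-CoA for the citric acid cycle. Pyruvate dehydrogenase kinases phosphorylate the E1 alpha subunit and switch the complex off, and the phosphatases remove the phosphate and switch it on again. In heart this balance helps set the choice between carbohydrate and fatty acid as fuel, and transcription of Pdk4 is known to follow fasting and fatty acid supply. RNA levels say nothing about phosphorylation of the complex, which was not measured.

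None of the 10 genes passed the test between CM-RevDKO and control hearts (limma with Benjamini-Hochberg adjustment over 13256 genes). Over all genes tested, 2.50% passed, 1.26% higher and 1.24% lower in CM-RevDKO hearts. In 3 of the 10, Pdhb, Pdk2 and Pdp2, CM-RevDKO and control values did not overlap, a pattern seen in 23.1% of all genes tested, and the same 3 had an unadjusted p under 0.05, as did 16.6% of all genes. The median log2 fold change of the 10 was -0.02, beside 0.02 over all genes, with 4 above 0 and 6 below. The smallest adjusted p among them was 0.0947, that of Pdk2. In simulated data the test recovered 15.2% of genes changed by 0.5 on the log2 scale, so not passing does not show an unchanged level. The changed genes were drawn at random from all genes tested, so 15.2% is not the rate for these 10. Their within-group SDs ranged from the 5.15th percentile of all genes (Pdha1) to the 98.7th (Pdk4). The values were read as FPKM, fragments scaled to transcript length and to the size of the library, and fold changes are differences of log2(FPKM + 1).

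The libraries summed to 709195, 702391 and 712158 FPKM in CM-RevDKO and to 678722, 688269 and 691212 FPKM in control hearts. These sums did not overlap, and the main fit did not rescale them. The sequencing depth of the libraries is unknown. Arntl, a clock gene that REV-ERB represses, stood at 12.5, 12.95 and 12.9 FPKM in CM-RevDKO hearts and at 0.295, 0.145 and 0.0831 FPKM in control hearts, with no overlap. The targeted Nr1d1 stood at 55.6, 47.4 and 47.9 FPKM in hearts labelled CM-RevDKO and at 23.9, 22.6 and 15.0 FPKM in those labelled control, against the direction of its label, but a value for the whole gene can include transcript outside the deleted part and checks nothing about the deletion. Nr1d2 stood at 28.8, 26.6 and 26.7 FPKM in CM-RevDKO and at 40.3, 30.6 and 36.3 FPKM in control hearts. The libraries also differed in marker RNA of atrial cardiomyocytes and of adipocytes. The summed level of 6 atrial cardiomyocyte markers was 685, 176 and 212 FPKM in CM-RevDKO and 126, 66.6 and 116 FPKM in control hearts, and that of 6 adipocyte markers was 108, 61.4 and 28.1 FPKM in CM-RevDKO and 35.1, 28.1 and 27.9 FPKM in control hearts. CM-RevDKO replicate 1 was highest in both sums, and the atrial sums did not overlap between the groups. Nor did the values of Myl7, Myl4 or Sln, the atrial markers averaged as a covariate below. A fit with that covariate therefore cannot tell marker level from group. None of the markers passed the test, and cardiomyocyte markers summed to 27987, 30216 and 31187 FPKM in CM-RevDKO and 27117, 27495 and 29376 FPKM in control hearts. In whole-heart RNA, a different number of cells of a type and a different RNA level per cell cannot be told apart.

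Per transcript length, the 10 genes spanned a wide range of levels that was ordered almost alike in both groups. In CM-RevDKO hearts Pdhb and Pdha1 were highest, followed by Pdk2, Pdk4 and Dlat, then Pdhx and Pdk1, then Pdp1, Pdp2 and Pdk3. In control hearts Pdha1 stood above Pdhb and Dlat above Pdk4, and the rest kept that order. Within each group the ranges of Pdha1 and Pdhb overlapped, as did those of Pdhx and Pdk1 and those of Dlat and Pdk4. In CM-RevDKO hearts the range of Pdk4 also overlapped that of Pdk2. All other neighbours in the order had separate ranges. Among all genes tested, the mean of Pdhb over the 6 libraries stood at the 98.7th percentile, that of Pdk2 at the 96.4th, that of Pdp1 at the 68.6th and that of Pdk3 at the 11.2th.

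**Figure D1:**
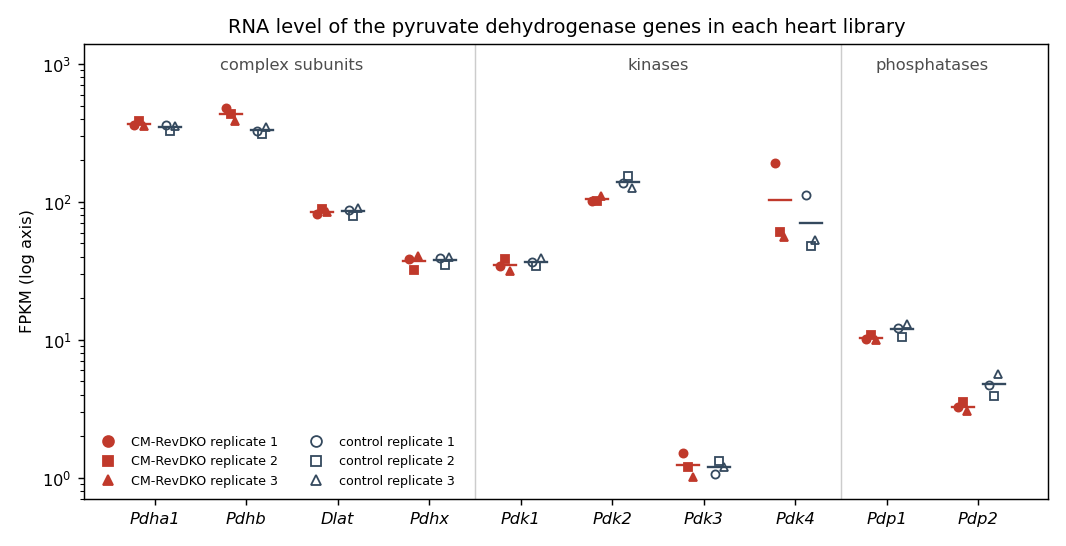
FPKM on a log axis of the 10 genes in each of the 3 CM-RevDKO hearts (filled red symbols) and 3 control hearts (open blue symbols), with a symbol for each replicate number and short lines for group means. The E1 subunits stand at 313 to 481 FPKM, Pdk3 near 1 FPKM, and Pdk4 has the widest spread within both groups, with replicate 1 on top in each.

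The E1 component decarboxylates pyruvate and is built from alpha and beta subunits that assemble in equal numbers. Pdha1, the E1 alpha gene that carries the regulatory phosphorylation sites (ENSMUSG00000031299, chromosome X, 160122219 to 160138430, GRCm38.p6), stood at 363, 385 and 354 FPKM in CM-RevDKO hearts and at 359, 328 and 354 FPKM in control hearts. The groups overlapped, and the log2 fold change was 0.08 with a standard error of 0.08 and a 95% interval of -0.11 to 0.28 (limma, adjusted p = 0.677). Pdha1 varied little, with a within-group SD of 0.0664 on the log2 scale that lay at the 5.15th percentile of all genes. It overlaps Map3k15 in the annotation, whose reads could be shared where counting ignored strand.

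Pdhb, the E1 beta gene (ENSMUSG00000021748, chromosome 14, 8165991 to 8173303, GRCm38.p6), stood at 481, 438 and 384 FPKM in CM-RevDKO hearts and at 330, 313 and 352 FPKM in control hearts. Every CM-RevDKO library lay above every control library. The means were 434 ± 48.4 FPKM in CM-RevDKO and 332 ± 19.3 FPKM in control hearts (SD, n = 3 each), a ratio of 1.31. The log2 fold change of 0.38 had a standard error of 0.11 and an interval of 0.14 to 0.63, and the gene did not pass the test (limma, unadjusted p = 0.00768, adjusted p = 0.124). The estimate was 0.19 with the atrial marker level as a covariate and 0.21 without CM-RevDKO replicates 1 and 2, the hearts with the most adipocyte marker RNA, and was 0.47 at most, without CM-RevDKO replicate 3.

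The ratio of the Pdha1 to the Pdhb level did not overlap between the groups, although neither gene passed the test. It was 0.755, 0.878 and 0.922 in CM-RevDKO hearts and 1.09, 1.05 and 1.01 in control hearts, with a mean of 0.852 ± 0.0867 in CM-RevDKO and 1.05 ± 0.0419 in control hearts (SD, n = 3 each). E1 alpha RNA was thus the less abundant of the pair per transcript length in each CM-RevDKO heart. In control hearts it was level with E1 beta RNA or slightly above it, and the ratio in control replicate 3 was 1.006. CM-RevDKO replicate 1, the library with the most atrial and adipocyte marker RNA, had the lowest ratio, and the part of that RNA in the ratio was not tested. The ratio is given as a description, with no test. Pdhb alone did not overlap either, and how often the ratios of other gene pairs separate was not counted.

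The E2 component moves the acetyl group to coenzyme A, and an E3-binding protein anchors the last enzyme to the E2 core. Dlat, the E2 gene (ENSMUSG00000000168, chromosome 9, 50634633 to 50659780, GRCm38.p6), stood at 81.1, 88.8 and 84.3 FPKM in CM-RevDKO hearts and at 87.3, 79.2 and 90.6 FPKM in control hearts. Its groups overlapped across almost their whole range, and the interval of the log2 fold change was -0.23 to 0.20 (limma, adjusted p = 0.960). Pdhx, the gene of the E3-binding protein (ENSMUSG00000010914, chromosome 2, 103021055 to 103073513, GRCm38.p6), stood at 38.4, 32.3 and 40.8 FPKM in CM-RevDKO hearts and at 38.9, 35.1 and 39.8 FPKM in control hearts. These groups overlapped too, with an interval of -0.30 to 0.23 (limma, adjusted p = 0.922). Dlat RNA stood at 2.11, 2.75 and 2.06 times the Pdhx level in CM-RevDKO and at 2.25, 2.26 and 2.28 times in control hearts, so the 3 control ratios lay inside the CM-RevDKO range.

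Dld, not among the 10, encodes the E3 dehydrogenase that this complex shares with the other 2-oxoacid dehydrogenases. It stood at 198, 204 and 198 FPKM in CM-RevDKO hearts and at 189, 172 and 192 FPKM in control hearts. The groups did not overlap, but the difference was small, with a log2 fold change of 0.12 and an interval of -0.08 to 0.31 (limma, adjusted p = 0.529). With quantile normalization the log2 fold change of Dld was 0.002. The intervals of Pdha1, Dlat, Pdhx and Dld all lie within 0.31 of 0 on the log2 scale, so larger differences in these 4 fall outside them, while that of Pdhb reaches 0.63.

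**Figure D2:**
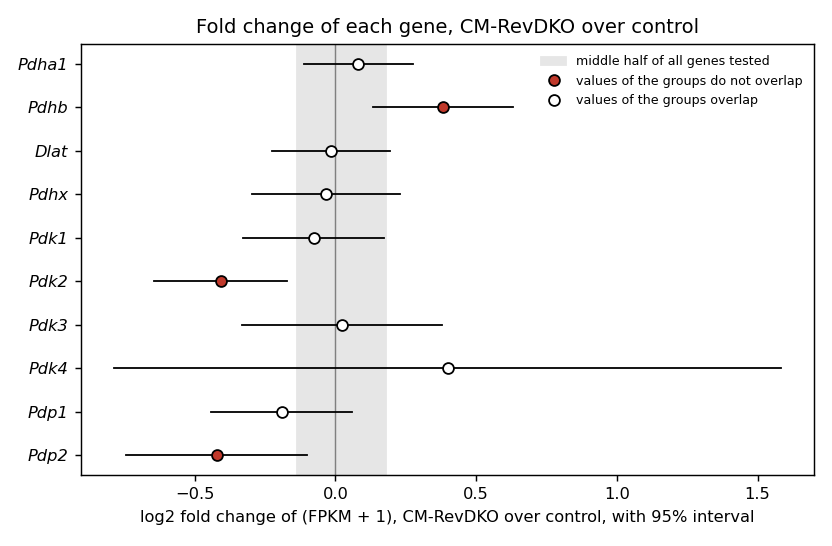
Log2 fold change of FPKM + 1 (CM-RevDKO over control) of the 10 genes, with bars for the 95% intervals from limma, red points where the 6 values of the groups do not overlap, and a grey band from the lower to the upper quartile of all genes tested, -0.13 to 0.18. The bars of Pdhb, Pdk2 and Pdp2 exclude 0 before adjustment for the number of genes, none passed after it, and the bar of Pdk4 is the widest, from -0.79 to 1.58.

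Pdk2, the widely expressed kinase that responds to the acetyl-CoA and NADH made by the complex, had the highest mean of the 4 kinases (ENSMUSG00000038967, chromosome 11, 95026258 to 95041371, GRCm38.p6). It stood at 102, 101 and 111 FPKM in CM-RevDKO hearts and at 137, 155 and 126 FPKM in control hearts. Every CM-RevDKO library lay below every control library. The means were 105 ± 5.16 FPKM in CM-RevDKO and 140 ± 14.4 FPKM in control hearts (SD, n = 3 each), a ratio of 0.750. The log2 fold change of -0.41 had a standard error of 0.10 and an interval of -0.64 to -0.17, and it did not pass the test (limma, unadjusted p = 0.00436, adjusted p = 0.0947). Over the alternative settings it lay between -0.52 and -0.30, below 0 in each, and the lowest adjusted p was 0.0504, with libraries scaled without the mitochondrially encoded genes.

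Promoters of the genes were searched for the motifs of factors tied to the clock and to fuel choice, in RefSeq windows of 300 bases, 250 before to 50 after each start (GRCm38.p6, both strands). Windows were given for 9 of the 10 genes, 11 windows in all, the exception being Pdp1. The E-box CACGTG, which BMAL1 and CLOCK bind, was found in 2 windows, one of Pdk2 and one of Pdp2, and 7.15% of all 32851 promoters hold it. These are the only E-box matches in the 11 windows, and both are shown, 28 bases each on the strand of the gene, 5′ to 3′, with the E-box in capitals. Promoters were planned to be printed only for genes past the test, and neither gene passed. The Pdk2 match starts at position -126 from the gene start and the Pdp2 match at position -219.
Pdk2, chr11:95041481-95041508, minus strand: tcgaggagagcCACGTGtcgaagcgcaa
Pdp2, chr8:104591242-104591269, plus strand: gggaagagcccCACGTGacgacctactg
The element AGGTCA, bound by REV-ERB and by other nuclear receptors, was in 0 of the 11 windows and in 16.3% of all promoters. Its extended form TCAAGGTCA, which contains it and is bound by estrogen-related receptors, was in 0 of the 11 and in 0.423% of all promoters. The DR1 element of PPAR was in 0 and in 0.0396% of all, and the D-box TTATGTAA, bound by E4BP4 and DBP, in 0 and in 0.938% of all. A match is not a binding site, and a missing match says only that these letters are not in the window.

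Pdk4, the kinase induced in fasting and by fatty acids through PPAR and FOXO factors (ENSMUSG00000019577, chromosome 6, 5483351 to 5496278, GRCm38.p6), stood at 193, 60.6 and 56.0 FPKM in CM-RevDKO hearts and at 112, 47.5 and 53.2 FPKM in control hearts. In each group the replicate numbered 1 was far above the other hearts, and the groups overlapped. The log2 fold change was 0.40 with a standard error of 0.51 and an interval of -0.79 to 1.58 (limma, adjusted p = 0.750). Its within-group SD of 0.840 on the log2 scale lay at the 98.7th percentile of all genes, so these hearts show little about a difference between the groups in either direction. Without CM-RevDKO replicate 1 the log2 fold change turned to -0.17, and without both replicates numbered 1 it was 0.21.

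**Figure D3:**
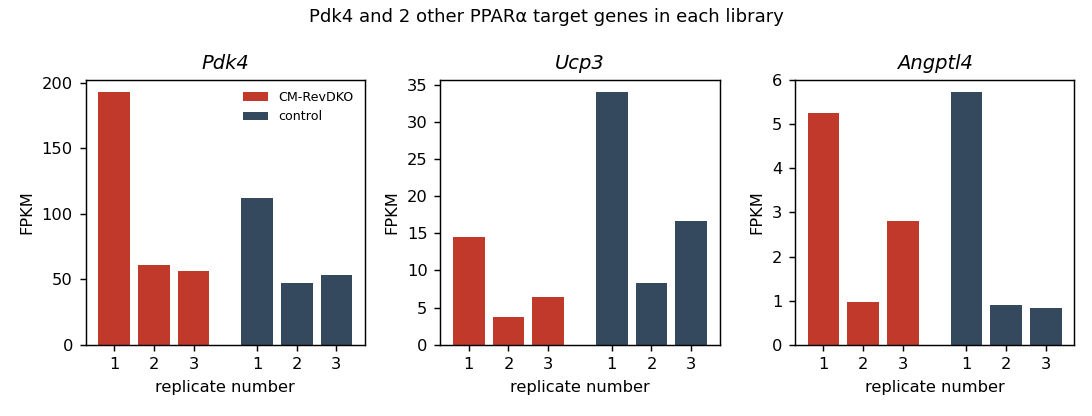
FPKM of Pdk4, Ucp3 and Angptl4 in each of the 3 CM-RevDKO hearts (red bars) and 3 control hearts (blue bars), by replicate number. The hearts numbered 1 are the highest of their group for all 3 genes, with Pdk4 at 193 FPKM in CM-RevDKO and 112 FPKM in control.

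Other genes that PPAR alpha activates in muscle showed part of the same pattern, which was noticed after the values were seen. In 9 of 19 such genes the replicate numbered 1 was the highest in both groups, or 47.4%, beside 19.2% of all genes tested and 1 of the 10 genes described here, Pdk4. Ucp3, a mitochondrial carrier induced by fasting, stood at 14.5, 3.78 and 6.36 FPKM in CM-RevDKO hearts and at 34.0, 8.35 and 16.7 FPKM in control hearts. Angptl4, a secreted inhibitor of lipoprotein lipase, stood at 5.25, 0.959 and 2.80 FPKM in CM-RevDKO hearts and at 5.72, 0.910 and 0.824 FPKM in control hearts. Neither gene passed the test, and within each group replicate 1 led both. Feeding state and sampling order of the mice are not given in the labels. The genes most like Pdk4 over the 6 libraries, by the root mean square difference of centred log2 values among 7255 genes, included Col1a1 at 0.319 and Emp1 at 0.336. Col1a1, a collagen gene of fibroblasts, stood at 26.1, 12.6 and 12.98 FPKM in CM-RevDKO hearts and at 21.0, 11.8 and 13.3 FPKM in control hearts. The 6 fibroblast markers together summed to 485, 396 and 382 FPKM in CM-RevDKO hearts and to 518, 361 and 372 FPKM in control hearts, highest in the same 2 hearts as Pdk4. The summed atrial, adipocyte, endothelial and smooth muscle markers were likewise highest in replicate 1 of each group. Endothelial markers, for example, summed to 197, 168 and 166 FPKM in CM-RevDKO and to 171, 165 and 147 FPKM in control hearts, and smooth muscle and pericyte markers to 228, 206 and 222 FPKM in CM-RevDKO and to 214, 187 and 169 FPKM in control hearts. The macrophage, lymphocyte and erythroid sums were not highest in replicate 1 of both groups, and the cardiomyocyte sum was lowest in replicate 1 of each. With the atrial marker level as a covariate the Pdk4 log2 fold change was -1.07, and with the adipocyte marker level, chosen after seeing the data, it was -0.50, and neither passed the test (limma, adjusted p = 0.628 and 0.825).

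Pdk1, the kinase known for its induction by hypoxia (ENSMUSG00000006494, chromosome 2, 71873215 to 71903858, GRCm38.p6), stood at 34.5, 38.7 and 31.3 FPKM in CM-RevDKO hearts and at 36.4, 34.6 and 39.3 FPKM in control hearts. The groups overlapped, with a log2 fold change of -0.08 and an interval of -0.33 to 0.17 (limma, adjusted p = 0.775). Pdk3 (ENSMUSG00000035232, chromosome X, 93764616 to 93832150, GRCm38.p6), an isoform of restricted tissue distribution, stood at 1.51, 1.20 and 1.01 FPKM in CM-RevDKO hearts and at 1.07, 1.32 and 1.20 FPKM in control hearts. At this low level its interval was -0.33 to 0.38 (limma, adjusted p = 0.963), and it was the lowest of the 10 genes in both groups.

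The composition of the kinase RNA was set mostly by Pdk2 and Pdk4. The 4 kinases summed to 331, 202 and 199 FPKM in CM-RevDKO hearts and to 287, 238 and 220 FPKM in control hearts, and these sums overlapped. Pdk2 made up 30.9%, 50.1% and 55.6% of the sum in CM-RevDKO hearts and 48.0%, 65.01% and 57.4% in control hearts. Pdk4 made up 58.2%, 30.1% and 28.2% in CM-RevDKO and 39.0%, 19.9% and 24.2% in control hearts. Pdk4 was thus the larger part in CM-RevDKO replicate 1 alone, and Pdk2 in the other 5 hearts. Pdk1 gave 10.4% to 19.2% in CM-RevDKO hearts and 12.7% to 17.8% in control hearts, and Pdk3 stayed under 1% in every library. The ratio of Pdk4 to Pdk2 was 1.88, 0.600 and 0.507 in CM-RevDKO and 0.813, 0.307 and 0.421 in control hearts, with overlap.

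**Figure D4:**
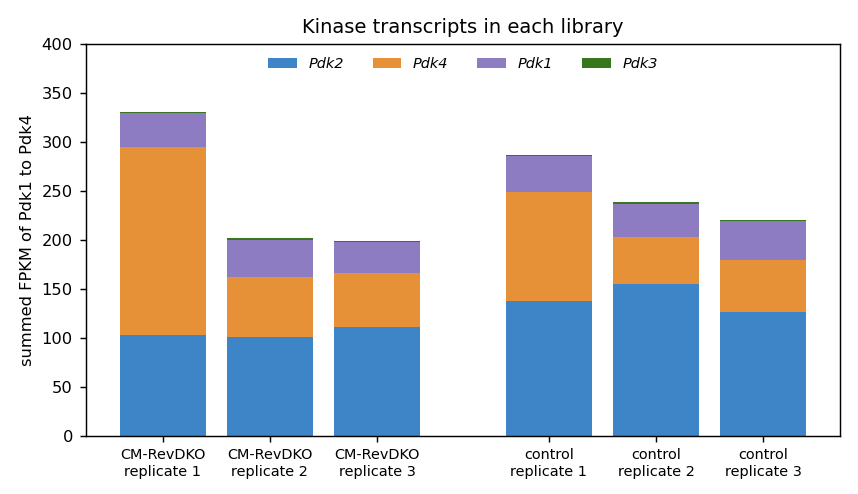
Summed FPKM of the 4 kinase genes in each of the 3 CM-RevDKO and 3 control hearts, as stacked bars split into Pdk2, Pdk4, Pdk1 and Pdk3 from the bottom. Pdk4 is the largest block in CM-RevDKO replicate 1, at 58.2% of the sum, and Pdk2 in each other heart, and Pdk3 is barely visible.

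Phosphatase RNA was scarce beside kinase RNA. Pdp1, the calcium-stimulated catalytic isoform of heart and muscle (ENSMUSG00000049225, chromosome 4, 11958183 to 11966450, GRCm38.p6), stood at 10.1, 10.7 and 9.93 FPKM in CM-RevDKO hearts and at 12.2, 10.4 and 12.995 FPKM in control hearts. The groups overlapped, and the log2 fold change of -0.19 had an interval of -0.44 to 0.06 (limma, adjusted p = 0.426). Pdp2, the catalytic isoform known from liver and fat (ENSMUSG00000048371, chromosome 8, 104591472 to 104599026, GRCm38.p6), stood at 3.25, 3.51 and 3.02 FPKM in CM-RevDKO hearts and at 4.67, 3.89 and 5.68 FPKM in control hearts. Every CM-RevDKO library lay below every control library. The means of Pdp2 were 3.26 ± 0.246 FPKM in CM-RevDKO and 4.75 ± 0.896 FPKM in control hearts (SD, n = 3 each), a ratio of 0.687. Its log2 fold change of -0.42 had a standard error of 0.14 and an interval of -0.74 to -0.10, and it did not pass the test (limma, unadjusted p = 0.0168, adjusted p = 0.182).

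Added together, the 2 phosphatase genes gave 13.35, 14.26 and 12.96 FPKM in CM-RevDKO hearts and 16.9, 14.34 and 18.7 FPKM in control hearts. These sums did not overlap, though the highest CM-RevDKO and the lowest control value nearly touch. Pdp1 stood at 3.11, 3.06 and 3.28 times the Pdp2 level in CM-RevDKO hearts and at 2.62, 2.68 and 2.29 times in control hearts, without overlap. Kinase RNA exceeded phosphatase RNA 24.8, 14.1 and 15.4 times in CM-RevDKO hearts and 16.96, 16.6 and 11.8 times in control hearts. That ratio overlapped between the groups, and so did the kinase sum over the E1 sum, at 0.392, 0.245 and 0.269 in CM-RevDKO and 0.416, 0.372 and 0.312 in control hearts. These sums and ratios are descriptions, with no test, and how often those of other genes separate was not counted. Pdpr, the regulatory subunit of the phosphatase and not among the 10, stood at 21.3, 19.5 and 16.2 FPKM in CM-RevDKO and at 19.99, 16.1 and 21.3 FPKM in control hearts, with an interval of -0.34 to 0.32 (limma, adjusted p = 0.988).

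The genes most like Pdk2 over the 6 libraries were Dym at a root mean square difference of 0.0387, Rai2 at 0.0417 and Mpst at 0.0418. Dym, for example, stood at 14.1, 14.2 and 15.6 FPKM in CM-RevDKO and at 20.5, 23.0 and 17.4 FPKM in control hearts. None of the 3 passed the test (limma, adjusted p between 0.0984 and 0.119).

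Around the complex, 7 of the 91 tested genes in 7 lists of neighbouring pathways passed the test, 2 higher and 5 lower in CM-RevDKO hearts. That is 7.69%, beside 2.50% of all genes tested, and the groups of 39, or 42.9%, did not overlap, beside 23.1% of all genes. The background share depends on the level of the genes in it. Where a mean of at least 5 FPKM was required, 312 of 7255 genes passed, with 7 pathway list genes among them. The lists were not matched to other genes by level. The lists were chosen with earlier results known, so these shares are descriptions. Counts of signs in the lists are given without a test. Of all 13256 genes tested, 7112 log2 fold changes were above 0 and 6144 below. Among 15 genes of pyruvate supply and its other fates, 1 rose, none fell, 7 log2 fold changes were above 0 and 8 below, the median was -0.12, and 10 did not overlap between groups. Gpt, the alanine aminotransferase that interconverts pyruvate and alanine in the cytosol, rose to 29.2, 28.7 and 31.0 FPKM in CM-RevDKO hearts, against 15.2, 16.3 and 15.3 FPKM in control hearts. Its groups were far apart, with a log2 fold change of 0.88 and a standard error of 0.09 (limma, adjusted p = 0.00346). Gpt passed with any single library left out, at an adjusted p of 0.0117 to 0.0268, and in 18 of 21 alternatives, but not with the atrial marker level as a covariate (0.0992), without CM-RevDKO replicates 1 and 2 (0.0740) or without both replicates numbered 1 (0.0679). Gpt2, the mitochondrial isoform, stood at 5.74, 5.88 and 5.85 FPKM in CM-RevDKO hearts and at 6.97, 10.8 and 11.5 FPKM in control hearts, lower in every CM-RevDKO heart without passing (limma, adjusted p = 0.120). Gpt RNA stood at 5.09, 4.87 and 5.29 times the Gpt2 level in CM-RevDKO hearts and at 2.18, 1.52 and 1.33 times in control hearts.

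The mitochondrial pyruvate carrier, which brings pyruvate to the complex, is a pair of proteins listed under their older symbols. Brp44l, now Mpc1, stood at 128, 106 and 98.7 FPKM in CM-RevDKO hearts and at 75.4, 86.7 and 74.4 FPKM in control hearts, higher in every CM-RevDKO heart without passing (limma, adjusted p = 0.0984). Brp44, now Mpc2, stood at 271, 257 and 273 FPKM in CM-RevDKO hearts and at 285, 287 and 314 FPKM in control hearts (limma, adjusted p = 0.438). Carrier RNA thus held more Brp44l relative to Brp44 in each CM-RevDKO heart, at ratios of 0.473, 0.413 and 0.361, than in each control heart, at 0.265, 0.302 and 0.237. Of the genes that make pyruvate, Pkm2, now Pkm and a pyruvate kinase, stood at 536, 508 and 494 FPKM in CM-RevDKO and at 414, 431 and 463 FPKM in control hearts (limma, adjusted p = 0.221). Ldhb, the heart-type lactate dehydrogenase subunit, stood at 655, 716 and 696 FPKM in CM-RevDKO and at 812, 913 and 788 FPKM in control hearts (limma, adjusted p = 0.181). Me2, a mitochondrial malic enzyme, stood at 4.59, 4.15 and 3.77 FPKM in CM-RevDKO and at 2.71, 1.93 and 2.70 FPKM in control hearts (limma, adjusted p = 0.0791). The groups of these 3 genes did not overlap, with Pkm2 and Me2 higher and Ldhb lower in CM-RevDKO hearts.

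Genes that use or buffer acetyl-CoA included 1 that fell and none that rose among 11, with a median log2 fold change of -0.12 and 6 whose groups did not overlap. Acss1, the mitochondrial synthetase that makes acetyl-CoA from acetate without the complex, fell to 70.5, 79.6 and 66.9 FPKM in CM-RevDKO hearts, against 108, 115 and 98.0 FPKM in control hearts. Its log2 fold change was -0.56 with a standard error of 0.10 (limma, adjusted p = 0.0410). Acacb, the acetyl-CoA carboxylase that makes the malonyl-CoA restraining fatty acid import, stood at 30.7, 29.4 and 34.8 FPKM in CM-RevDKO and at 46.6, 52.0 and 40.8 FPKM in control hearts, not past the test (limma, adjusted p = 0.0697).

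The complex needs lipoate on its E2 subunits and thiamine pyrophosphate on E1. Of 13 genes of that supply 1 rose, none fell and 11 had a log2 fold change above 0, with a median of 0.09, and the groups of 3 did not overlap. Bola3, an iron-sulfur cluster factor needed for lipoate synthesis, rose to 90.8, 83.9 and 70.0 FPKM in CM-RevDKO hearts, against 45.2, 47.4 and 55.4 FPKM in control hearts (limma, log2 fold change 0.71, standard error 0.13, adjusted p = 0.0365). Glrx5, a glutaredoxin of the same iron-sulfur route, stood at 113, 109 and 83.2 FPKM in CM-RevDKO and at 67.8, 71.8 and 78.4 FPKM in control hearts, not past the test (limma, adjusted p = 0.133). Both were higher in every CM-RevDKO heart than in any control heart, with replicate 3 the lowest of the CM-RevDKO hearts. Erythroid cells also make such factors for heme synthesis, and 5 erythroid markers summed to 11003, 8867 and 8703 FPKM in CM-RevDKO and to 6274, 9005 and 5010 FPKM in control hearts, overlapping, and the part of blood in these values was not tested.

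The branched-chain and 2-oxoglutarate dehydrogenases are built like this complex and share Dld with it. Of 10 genes in their list, which also holds the branched-chain kinase and phosphatase and Gcsh, the lipoate-bearing protein of the glycine cleavage system, 2 fell and none rose, with a median of -0.10 and 3 whose groups did not overlap. Bckdhb, E1 beta of the branched-chain complex, fell to 22.4, 24.3 and 23.2 FPKM in CM-RevDKO hearts, against 34.3, 32.3 and 32.3 FPKM in control hearts (limma, log2 fold change -0.48, standard error 0.08, adjusted p = 0.0333). Dbt, its E2 subunit, fell to 12.2, 13.7 and 16.1 FPKM in CM-RevDKO hearts, against 21.9, 22.3 and 22.3 FPKM in control hearts (limma, log2 fold change -0.63, standard error 0.11, adjusted p = 0.0364). Pdhb and Dlat, the subunits with the same roles in the pyruvate complex, had log2 fold changes of 0.38 and -0.01 and did not pass, and the difference between the complexes was not tested. The sirtuins Sirt3 and Sirt4, which remove acyl groups in mitochondria, did not pass the test (limma, adjusted p = 0.964 and 0.796), and none of 3 such genes did.

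Of 20 regulators of the kinase genes 1 fell and none rose, 18 log2 fold changes were below 0, the median was -0.22 and the groups of 8 did not overlap. Of all 13256 genes tested, 6144 were below 0, and the sign count of the list was not tested. Foxo3, a forkhead factor known to activate Pdk4 when insulin is low, fell to 11.4, 11.98 and 11.03 FPKM in CM-RevDKO hearts, against 15.0, 18.0 and 17.4 FPKM in control hearts (limma, log2 fold change -0.51, standard error 0.10, adjusted p = 0.0485). Nr3c1, the glucocorticoid receptor, stood at 11.3, 12.8 and 13.4 FPKM in CM-RevDKO and at 16.4, 17.4 and 19.1 FPKM in control hearts (limma, adjusted p = 0.0730). Ppargc1a, a coactivator of PPAR and estrogen-related receptors, stood at 7.73, 11.2 and 10.5 FPKM in CM-RevDKO and at 16.0, 12.9 and 14.5 FPKM in control hearts (limma, adjusted p = 0.134). Both were lower in every CM-RevDKO heart without passing. Hif1a, the hypoxia factor that activates Pdk1, overlapped between the groups (limma, adjusted p = 0.997). Among 19 PPAR alpha targets of muscle 1 fell and none rose, 16 were below 0, the median was -0.27, and the groups of 9 did not overlap. The one that fell was Cd36, the fatty acid transporter, at 256, 287 and 264 FPKM in CM-RevDKO hearts, against 417, 357 and 362 FPKM in control hearts (limma, log2 fold change -0.49, adjusted p = 0.0471).

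**Figure D5:**
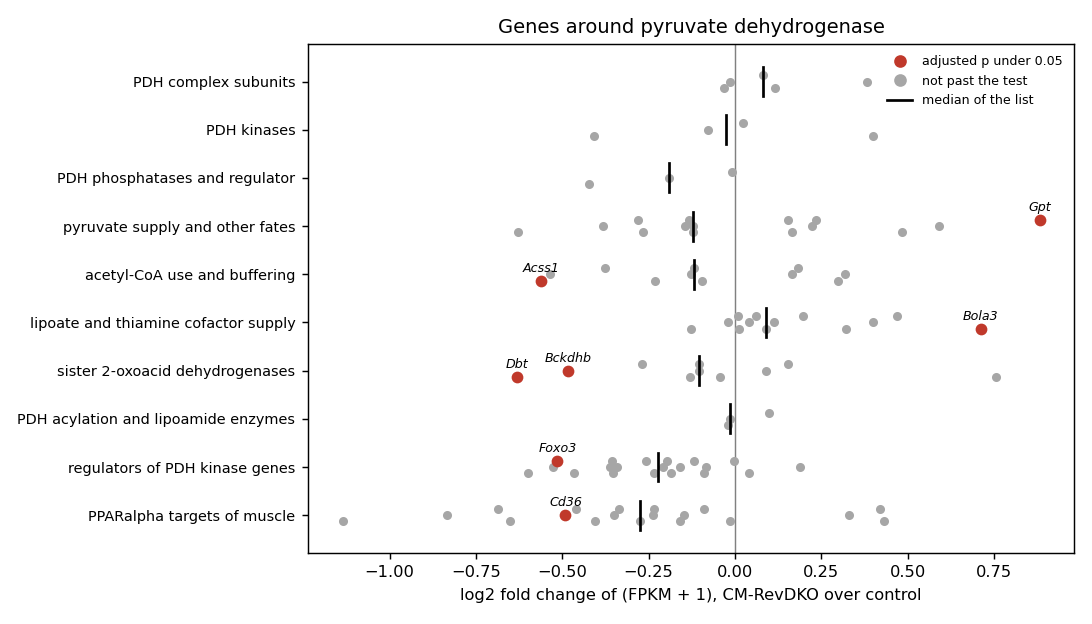
Log2 fold change of FPKM + 1 (CM-RevDKO over control) of every tested gene of the pathway lists, 1 row a list, with red named points for genes past the test in limma, grey points for the rest and a black line at the median of each list; PDH stands for pyruvate dehydrogenase. The red points are Gpt and Bola3 above 0 and Acss1, Bckdhb, Dbt, Foxo3 and Cd36 below, and none lies in the rows of the complex, its kinases or its phosphatases.

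Apart from Gpt, these calls lay near the threshold. With the atrial marker level as a covariate none of the 7 passed, and the 6 other than Gpt had adjusted p between 0.487 and 0.588 (limma). That covariate does not overlap between the groups, so marker level and genotype cannot be told apart in this fit. Without the intensity trend Gpt alone of the 7 passed. Acss1, Bckdhb, Foxo3 and Cd36 passed in none of the 6 fits that leave out a single library, with adjusted p between 0.0665 and 0.159 over the 4 genes. Bola3 and Dbt passed without CM-RevDKO replicate 3 alone and reached 0.135 and 0.123 without others. The log2 fold changes of all 7 kept their sign in the 21 alternatives.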

How the data were processed

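The authors deposited a table with 1 value per gene and library for the 6 heart RNA libraries, made on the build mm10 with HISAT2 and StringTie, per the submitters' processing notes, which give no versions. For the annotation and the strand setting, the sources used here say nothing. FPKM, which StringTie reports, was taken as the deposited unit, since the header names none, and TPM could not be told apart from it. The depth is unknown, since no whole reads could be recovered from low values, so no counting intervals are given. The other 24 of the 30 samples in the series, from chromatin assays, were not analysed here.

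Values were analysed as log2(FPKM + 1), which understates fold changes of low genes. A mean of 0.5 FPKM or more over the 6 libraries left 13256 genes, which were fitted in R 4.3.3 with limma 3.58.1 (lmFit, then eBayes with trend, and the group alone in the design). Benjamini-Hochberg adjustment of the two-sided p-values ran over all of them, with a threshold of 0.05. The fit was tested on simulated data with known changes.

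The genes described and the lists around them were chosen with earlier results of these data known. Named genes were the 10, Dld and Pdpr, the list genes past the test, or the 2 with the smallest p where none passed, the genes most like Pdk4 (1 of them is not reported here) and Pdk2, and Nr1d1, Nr1d2 and Arntl. Gpt2, Me2, Acacb, Glrx5, Pkm2, Ldhb, Brp44l, Brp44, Nr3c1, Ppargc1a, Hif1a, Ucp3 and Angptl4 were chosen after their values were seen. The ratios of Pdk4 to Pdk2, Pdp1 to Pdp2, Brp44l to Brp44 and Gpt to Gpt2 were added to those planned. Likeness was measured among the 7255 genes averaging 5 FPKM or more. Coordinates, 1-based, and promoters come from RefSeq on GRCm38.p6, which is mm10. Alternatives changed the pseudocount, the filter, the scaling, the variance model, the covariates, the replicate block and the libraries used.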

Additional observations from a re-analysis of the deposited data

How the results depend on the processing

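None of the 10 genes passed the test (limma) in any alternative that tested it, 21 for 8 genes and 20 for Pdk3 and Pdp2, which a minimum mean of 5 FPKM removed, while 332 genes of the whole table passed as reported. That whole-table count was 114 to 323 with single libraries left out, 127 without control replicate 2 and CM-RevDKO replicate 1, 28 without CM-RevDKO replicates 1 and 2, and 30 with the atrial marker level as a covariate. It was 35 without both replicates numbered 1 and 69 with an adipocyte covariate, both chosen after seeing the data. A replicate block gave 115 calls, with Gpt alone of the 7 list genes among them; same-numbered hearts deviated together at r = -0.037, -0.0642 and 0.0933, so the numbers were not taken to pair samples, and CM-RevDKO replicate 3 was the only heart of its group closest to the control of its own number. Scaling without mitochondrially encoded genes gave 118 higher and 212 lower calls, against 167 and 165 as reported. The signs of Pdk1, Pdk2, Pdhb, Pdp1 and Pdp2 held in every alternative that tested them. Pdk3 (0.02) turned to -0.013 with that scaling and -0.010 with quantile normalization, to -0.11 with the atrial and -0.12 with the adipocyte covariate, to -0.02, -0.12 and -0.10 without the pairs of libraries in the order above, and spanned -0.061 to 0.10 with single libraries left out. Pdk4 (0.40) turned to -1.07 with the atrial and -0.50 with the adipocyte covariate and to -0.40 and -0.23 without the first pairs named, and spanned -0.17 to 0.78 with single libraries left out. Pdha1 turned to -0.030 with quantile normalization. Dlat turned to 0.030 without both replicates numbered 1 and spanned -0.070 to 0.026 with single libraries left out. Pdhx turned to 0.11 without CM-RevDKO replicates 1 and 2 and 0.047 with the adipocyte covariate and spanned -0.10 to 0.062 with single libraries left out, and Pdpr (-0.01) spanned -0.12 to 0.10. With the atrial covariate Pdhx was -0.18 and Pdpr -0.29, and Pdpr was -0.20 and -0.22 without the first pairs named and -0.21 with the adipocyte covariate. Where the cause is not part of the alternative's construction, the cause was not tested.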
